A study of Mus musculus with 7 samples.

Results

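Genes that separate embryonic cells in culture from adult organs were read from 7 expression arrays, 4 of cultured cells against 3 of tissue. A gene was taken as a member when its lowest signal in one set of arrays was at least 2-fold above its highest signal in the other, with signals under 50 raised to 50, so that no cultured array overlapped any adult array. Each gene was represented by its brightest probe set that is annotated to that gene alone, judged by the log2 signal averaged over all 7 arrays. A gene is called apart below only where it passed this rule. By this rule 891 of 18194 genes were members, 762 of them higher and 129 lower in the cultured cells. The cultured arrays were SK7_ESC, undifferentiated cells of the male mouse ES line SK7, and Ect, End and Pme, which are the ectoderm, endoderm and paraxial mesoderm cultures made from the same line. All 4 therefore descend from 1 line, which carries a GFP reporter transgene under the Pdx1 promoter. The adult arrays were Brain, Liver and Sk_muscle (skeletal muscle), whole tissues of male ICR mice older than 9 weeks. The labels give the strain ICR to the cultured cells too, and no source used here says how many animals went into a tissue sample. Every cell type or tissue had 1 array and there were no replicates. Culture against animal, embryonic stage against adult age, and the SK7 line against the ICR mice cannot be told apart, since each divides the arrays in the same way.

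Embryonic cells of the early layers divide rapidly, with short gap phases, and keep the machinery for copying DNA and segregating chromosomes in constant use, whereas most cells of adult brain, liver and muscle rest outside the cell cycle. Early embryonic cells also carry a set of oncofetal proteins that is switched off around birth. LIN28A, an RNA-binding protein of this set, blocks the maturation of the let-7 microRNAs, which in adult cells hold down Igf2bp1, Hmga2, Trim71 and other growth-promoting messages. Adult organs in turn respond to hormones and daily rhythms that a culture dish lacks or replaces by its medium. These are whole-culture and whole-tissue RNA samples, in which fewer cells of a type and less RNA per cell cannot be told apart.

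The arrays had between 8087 and 8623 genes at a signal of 50 or more in the cultured cells and between 7821 and 9078 in the tissues, and 12470 genes reached 50 in at least 1 array. Marker genes fitted the tissue labels: the summed signal of 17 neuron and glia genes was 29795 in Brain and at most 1747 elsewhere, that of 17 hepatocyte genes was 181981 in Liver and at most 4347 elsewhere, and that of 19 skeletal muscle genes was 215010 in Sk_muscle and at most 959 elsewhere. The 24 pluripotency genes summed to 29871 in SK7_ESC, and the 13 neural progenitor genes and 17 endoderm genes had their highest sums in Ect (12408) and End (25516). The 16 mesoderm genes summed to 4351 in Pme and at most 1055 elsewhere, and of these Pdgfra, Prrx1 and Twist1 were above 50 in Pme, while Tbx6, Msgn1, Meox1 and Tcf15, which mark paraxial mesoderm or somites, were under 50 there. With 1 array a cell type no value has an error, no p-value was computed, and 7 arrays set the precision.

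The members higher in the cultured cells made up 4.19% of all 18194 genes and those lower 0.709%, or 6.11% and 1.03% of the 12470 genes that reached 50. Because the same contrast chose the members, these shares describe them and nothing is read from the counts. The gap, which is the lowest signal of the brighter group over the highest signal of the dimmer group, had a median of 2.88 and a maximum of 40.7 among the higher genes, and was at least 10 in 47 of them. Among the lower genes the median was 2.60 and the maximum 15.5, and 2 genes reached 10. In 218 of the 762 higher genes every adult array was under 50, and in 46 of the 129 lower genes every cultured array was, so that their gaps are lower bounds. By a 2-fold difference between the group means alone, 2287 genes were higher and 2038 were lower, and 33.3% of the first but 6.33% of the second also passed the rule, which asks for no overlap and a 2-fold gap.

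**Figure D1:**
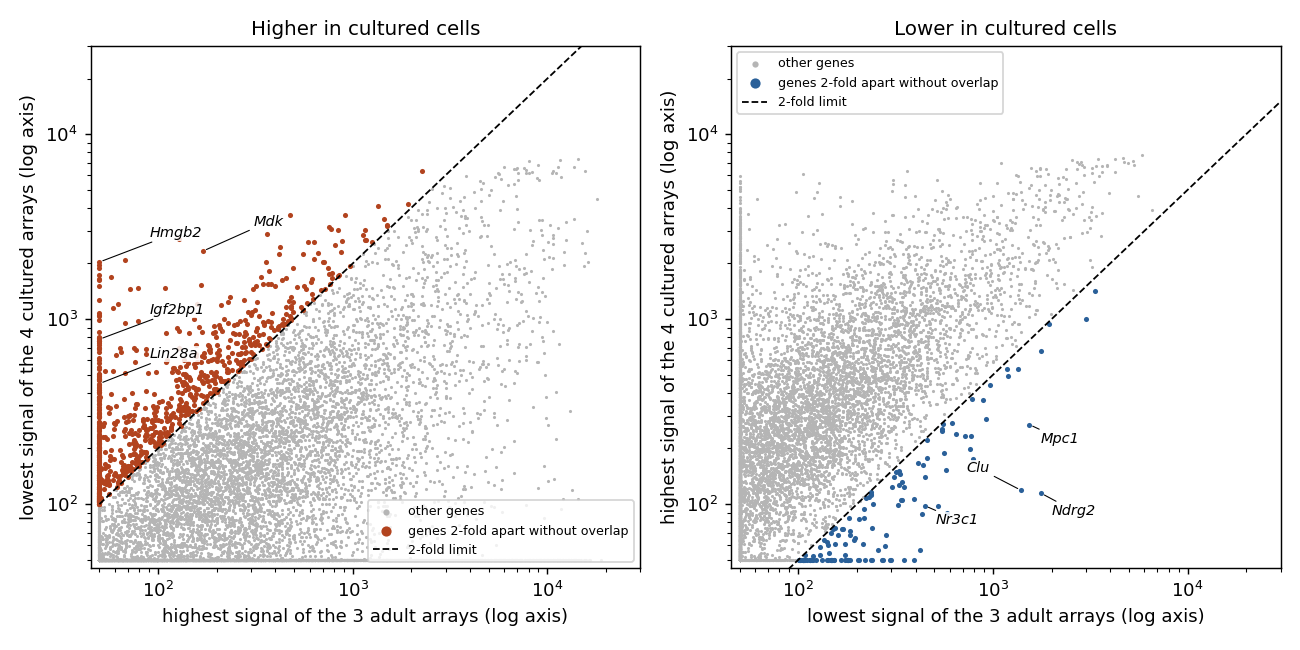
Left, the lowest signal of the 4 cultured arrays (vertical) against the highest of the 3 adult arrays (horizontal), and right, the highest cultured signal against the lowest adult signal, for the 12470 genes that reached 50 in at least 1 array, on log axes with signals under 50 drawn at 50. The 762 red genes lie above the dashed 2-fold limit on the left, and the 129 blue genes lie under it on the right.

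Within the cultures the higher genes were mostly level, and 576 of the 762 (75.6%) stayed within 2-fold among SK7_ESC, Ect, End and Pme. Their median signals were 532, 467, 457 and 425 in SK7_ESC, Ect, End and Pme, against 71.5 in Brain, 58.5 in Liver and 58.3 in Sk_muscle. SK7_ESC was the highest culture for 395 of them and Pme for 78. The lower genes were mostly uneven among the tissues, where 43 of the 129 (33.3%) stayed within 2-fold and 12 differed more than 10-fold. Their median signals were 47.3, 45.8, 41.8 and 53.3 in SK7_ESC, Ect, End and Pme, against 331 in Brain, 503 in Liver and 469 in Sk_muscle. The evenness of the dimmer group is not read in either set, since the rule and the floor of 50 bound it. That of the brighter group is in part set by the rule too, which drops a gene that is low in any array of that group. The shares within 2-fold therefore describe the members alone, and no such share of all genes is given beside them.

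**Figure D2:**
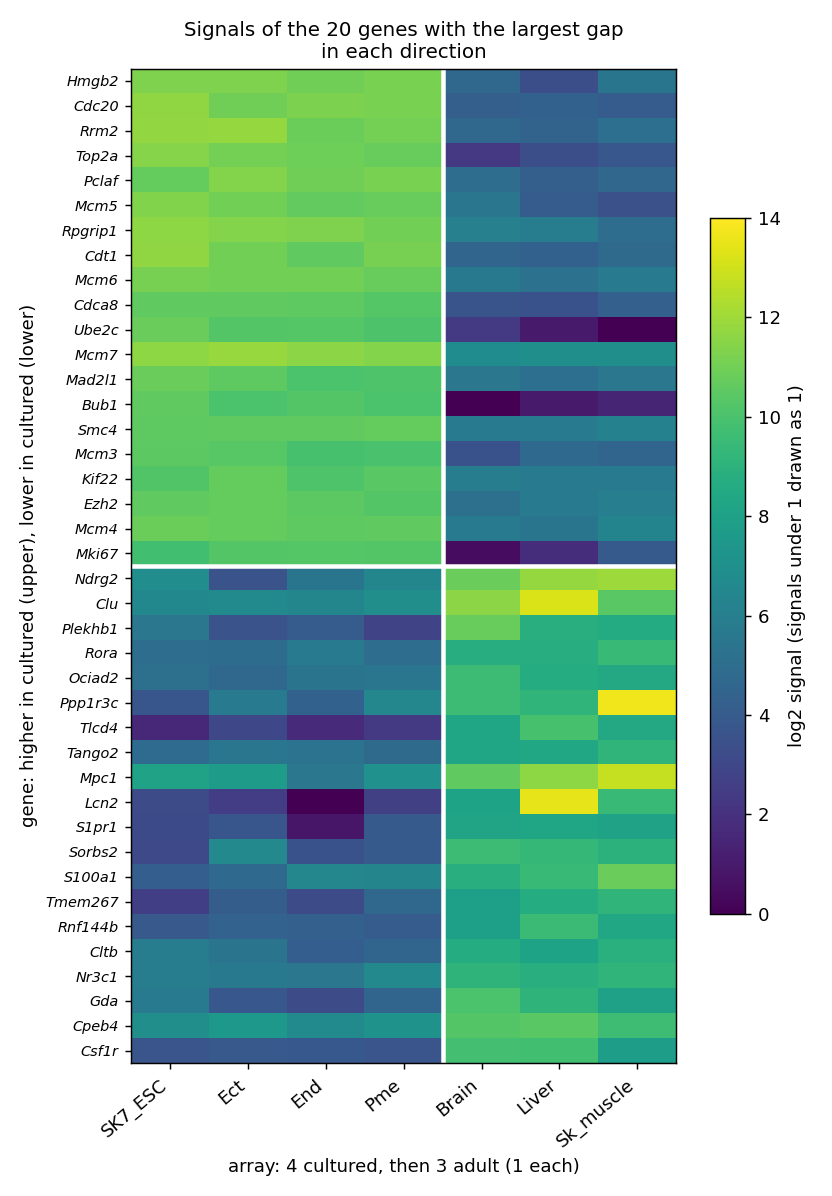
Log2 signals (colour) of the 20 genes with the largest gap in each direction, genes in lines and the 7 arrays in columns, 1 array each. White lines part the genes higher from those lower in the cultured cells and the cultured from the adult arrays. Hmgb2 leads the upper block with a gap of 40.7 and Ndrg2 the lower block with 15.5.

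Lin28a was high in every culture and under 50 in every tissue. Its signal was 898 (SK7_ESC), 448 (Ect), 1542 (End) and 1049 (Pme), against 7.5 in Brain, 7.3 in Liver and 16.3 in Sk_muscle, a gap of at least 8.97-fold. A further probe set of the gene had signals between 146.5 and 620.3 in the cultures and at most 8.8 in the tissues. It is a pluripotency marker that differentiation did not remove here: End had the highest level and Ect the lowest, and the lowest was still far above the tissues.

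The oncofetal genes shared this pattern, with 7 of 9 measured members higher in the cultures and 0 lower, and a median log2 difference of 3.52. Igf2bp1, which encodes an RNA-binding protein that stabilises growth-related messages, had signals of 1017 (SK7_ESC), 918 (Ect), 941 (End) and 779 (Pme), against 6.5 in Brain, 3.4 in Liver and 0.5 in Sk_muscle. The cultures were nearly equal, and no tissue reached 50 with any of the 4 probe sets of this gene. Sall4, a zinc finger transcription factor of ES cells and early embryos, had 1565 (SK7_ESC), 495 (Ect), 2947 (End) and 1274 (Pme), against 2.0 in Brain, 2.5 in Liver and 1.5 in Sk_muscle. A further probe set of Sall4 did not pass the rule, with 87.0 in Ect, against at most 6.8 in the tissues. Trim71, a let-7 target that encodes an RNA-binding ubiquitin ligase, was at least 5.10-fold apart, and Mycn, a Myc family transcription factor, was 4.51-fold apart with its brightest probe set and 1.04-fold with the geometric mean. Hmga2, an architectural chromatin protein, was uneven among the cultures, at 134.5 (SK7_ESC), 1382 (Ect), 722 (End) and 1598 (Pme), against 14.8 in Brain, 14.4 in Liver and 16.8 in Sk_muscle. Its gap was at least 2.69-fold with this probe set, and a further one passed the rule with 168.3 (SK7_ESC), 1679 (Ect), 989 (End) and 2113 (Pme), against at most 7.5 in the tissues. Where sets of shared sequence were left out, yet another set stood for the gene, with a gap of 1.24. The members that were not apart were Lin28b, under 50 in all 7 arrays, and Mycl, which reached 50 in Ect and End alone.

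**Figure D3:**
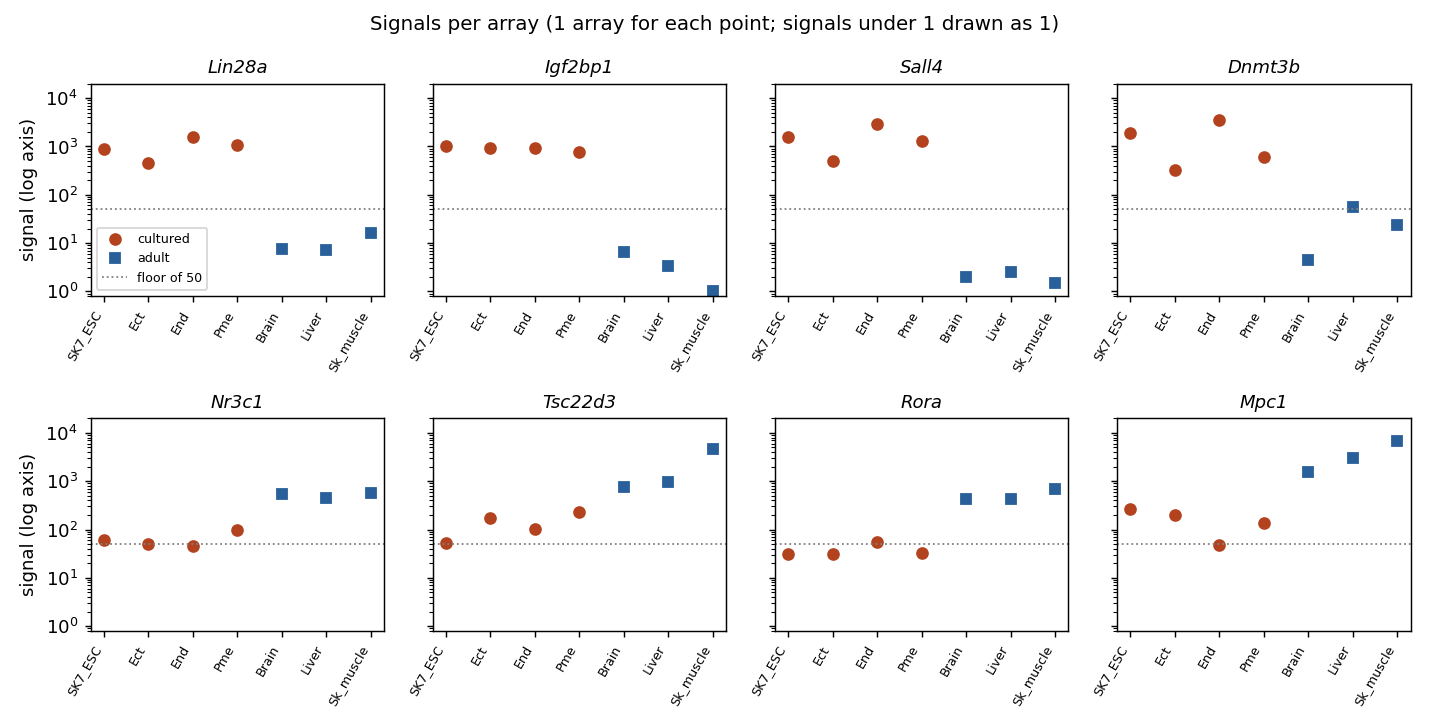
Signals of 4 genes higher (upper line) and 4 genes lower (lower line) in the cultured cells, on a log axis, with 1 point for each array, cultured arrays in red and adult arrays in blue, and a dotted line at the floor of 50. Lin28a, Igf2bp1 and Sall4 are under the floor in all 3 tissues, and Nr3c1 lies between 448 and 573 in the tissues and between 46.5 and 97.9 in the cultures.

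Genes of mitosis made the most complete group. Of 62 measured, 56 were higher in the cultures, 0 were lower, and the median log2 difference was 3.27. The summed signal of the list was between 37440 and 50224 in the cultures, against 1573 in Brain, 886 in Liver and 1335 in Sk_muscle. Cdc20, which activates the ubiquitin ligase that starts anaphase, had 3309 (SK7_ESC), 1967 (Ect), 2421 (End) and 2309 (Pme), against 19.2 in Brain, 20.2 in Liver and 16.7 in Sk_muscle, and it was at least 39.3-fold apart. Top2a, the topoisomerase that untangles chromosomes before they part, had 2760 (SK7_ESC), 2179 (Ect), 1891 (End) and 1737 (Pme), against 5.1 in Brain, 10.3 in Liver and 13.8 in Sk_muscle. In both genes all 3 tissues were near the bottom of the scale, and the gap of Top2a was 1.798 without probe sets of shared sequence and 1.08 with the geometric mean. Bub1 and Mad2l1 of the spindle checkpoint were at least 20.9-fold and 21.1-fold apart, Cdca8 of the chromosomal passenger complex at least 25.3-fold, Ube2c, an enzyme outside the list that conjugates ubiquitin together with CDC20, at least 21.6-fold, and Smc4, a condensin subunit, 20.2-fold. The proliferation marker Mki67 had 853 (SK7_ESC), 1222 (Ect), 1291 (End) and 1212 (Pme), against 1.4 in Brain, 3.6 in Liver and 15.7 in Sk_muscle, and SK7_ESC was the lowest culture. The 6 not apart were Anln, Cdc25b, Foxm1, Kif15, Kifc1 and Mybl2. Foxm1, a transcription factor that drives mitotic genes, was dim throughout, at 62.9, 102.4, 54.0 and 63.3 in SK7_ESC, Ect, End and Pme, against 34.1, 6.2 and 6.9 in Brain, Liver and Sk_muscle. With the geometric mean of all probe sets of a gene 37 mitosis genes were apart.

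DNA replication genes followed, with 38 of 45 higher in the cultures, 0 lower, and a median log2 difference of 2.66. The MCM2 to MCM7 proteins form the helicase that opens DNA at each origin, and all 6 of their genes were higher, from 9.85-fold for Mcm2 to at least 32.4-fold for Mcm5. Mcm5 had 2582 (SK7_ESC), 2113 (Ect), 1620 (End) and 1686 (Pme), against 45.7 in Brain, 17.1 in Liver and 11.1 in Sk_muscle. Cdt1, which loads this helicase, had 3281 (SK7_ESC), 2099 (Ect), 1518 (End) and 2229 (Pme), against 23.6 in Brain, 20 in Liver and 28.5 in Sk_muscle. All tissue signals of both genes were under 50, and with the geometric mean of probe sets the gap of Cdt1 was 1.92. Pclaf, outside the list, which encodes a partner of the sliding clamp PCNA, was at least 32.8-fold apart with its brightest probe set, and not with the geometric mean of its probe sets. Hells and Uhrf1, which keep DNA methylation through replication, were at least 15.8-fold and 14.01-fold apart. Pcna itself was 3.996-fold apart and visible in the tissues, at 4944, 4718, 3660 and 3636 in SK7_ESC, Ect, End and Pme, against 641, 548 and 910 in Brain, Liver and Sk_muscle. Mcm10, a loading factor of the replication fork, was not apart: it had between 255 and 473.5 in the cultures, against 10.4 in Brain, 318.4 in Liver and 14.5 in Sk_muscle.

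Of 27 genes of homologous recombination and Fanconi repair 10 were higher and 0 lower, with a median log2 difference of 1.17. They were led by Trip13, an ATPase that remodels checkpoint proteins, at least 11.1-fold apart, and Msh6, which recognises mismatches, at 10.3-fold. Chek1, the kinase of the replication checkpoint, had 843 (SK7_ESC), 496 (Ect), 379 (End) and 434 (Pme), against 9.6 in Brain, 2.5 in Liver and 16.8 in Sk_muscle. Brca1, Blm and Rad51ap1 were at least 5.94-fold, 6.57-fold and 4.39-fold apart. The lists for replication, mitosis and repair held 104 of the 762 higher genes and 14 of the 20 largest gaps. With a floor of 20 in place of 50, 16 repair genes were apart, and with the geometric mean of probe sets 4 were, without Trip13 (1.64), Chek1 (1.04), Brca1 (1.62) and Rad51ap1 (1.69).

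Of the largest gaps outside these lists, Hmgb2, a chromatin protein abundant in dividing cells, had the largest of all. Its signal was 2523 (SK7_ESC), 2472 (Ect), 2036 (End) and 2293 (Pme), against 25.7 in Brain, 10.2 in Liver and 43.0 in Sk_muscle, at least 40.7-fold. A further bright probe set of Hmgb2 gave the same order of groups, and without probe sets of shared sequence, which left a dim one, the gap was 1.26. Rrm2, the small subunit of ribonucleotide reductase, was at least 37.6-fold apart. Rpgrip1, which encodes a protein of the photoreceptor cilium, was listed at 30.9-fold, but its 3 further probe sets were under 50 in all 7 arrays, and the bright probe set is tied to this gene by the annotation alone. The growth factor gene Mdk (midkine) had 2336 (SK7_ESC), 3466 (Ect), 3154 (End) and 3024 (Pme), against 170.4 in Brain, 33.1 in Liver and 20.9 in Sk_muscle, and Rps6ka6, an X-linked kinase gene of the RSK family, was 14.03-fold apart. Mdk and Rps6ka6 were named after their values were seen.

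The promoters of these groups are shown because they hold short words that the rule did not use. The RefSeq table of GRCm38.p6 gave a promoter, from 250 bases before to 50 after the listed start, for 632 of the 762 higher genes, 105 of the 129 lower genes and 14368 of all 18194. Searched on both strands, TTTGAA, the core of the cell cycle homology region of mitotic promoters, was present in 32 of 48 promoters of mitosis genes higher in culture (66.7%), in 20.3% of all higher genes, 6.67% of the lower genes and 13.3% of all genes. CCAAT, the word bound by the factor NF-Y, was present in 34 of the 48 (70.8%), in 47.6% of all higher genes, likewise in 47.6% of the lower genes and in 38.2% of all genes. Words of the E2F kind (TTTGGCGC, TTTCGCGC, TTTCCCGC or TTTGCCGC) were present in 14 of 31 promoters of replication genes higher in culture (45.2%), in 10.6% of all higher genes, 3.81% of the lower genes and 3.37% of all genes. Over the whole mitosis list, whatever the call, TTTGAA was present in 35 of 53 promoters (66.0%) and CCAAT in 67.9%. The mitotic words are therefore not read as a mark of the contrast. No such share was taken over the whole replication list, so the E2F-like words are not read as one either. Higher genes outside the replication, mitosis and repair lists had TTTGAA in 16.4%, CCAAT in 45.2% and E2F-like words in 8.27% of promoters. These matches are descriptions of letters and not of bound sites, and the mitotic words can overlap by a base, for which no allowance was made. For the 2 mitosis genes with the largest gaps that hold both words, capitals mark both words on either strand. In Cdc20 the first base of TTTGAA lies 18 bases before the start, and those of the 2 CCAAT words lie 53 and 8 bases before it.
Cdc20 (chr4:118437294-118437593, minus strand): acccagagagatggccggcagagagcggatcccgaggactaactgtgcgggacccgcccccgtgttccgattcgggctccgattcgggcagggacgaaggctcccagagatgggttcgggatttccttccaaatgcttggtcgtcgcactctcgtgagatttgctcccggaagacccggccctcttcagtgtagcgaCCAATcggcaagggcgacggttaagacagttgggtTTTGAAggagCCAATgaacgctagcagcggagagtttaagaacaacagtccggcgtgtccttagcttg
Top2a (chr11:99024140-99024439, minus strand): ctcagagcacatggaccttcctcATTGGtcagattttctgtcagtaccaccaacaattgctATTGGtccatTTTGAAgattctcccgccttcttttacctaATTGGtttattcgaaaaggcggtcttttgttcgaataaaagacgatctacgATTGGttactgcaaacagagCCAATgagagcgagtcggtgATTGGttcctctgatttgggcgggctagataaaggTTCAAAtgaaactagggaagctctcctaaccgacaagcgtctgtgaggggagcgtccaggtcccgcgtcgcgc
For the 2 replication genes with the largest gaps that hold an E2F-like word, capitals mark it. In Mcm5 a pair of such words overlaps on opposite strands, and in Cdt1 the word lies after the start.
Mcm5 (chr8:75109259-75109558, plus strand): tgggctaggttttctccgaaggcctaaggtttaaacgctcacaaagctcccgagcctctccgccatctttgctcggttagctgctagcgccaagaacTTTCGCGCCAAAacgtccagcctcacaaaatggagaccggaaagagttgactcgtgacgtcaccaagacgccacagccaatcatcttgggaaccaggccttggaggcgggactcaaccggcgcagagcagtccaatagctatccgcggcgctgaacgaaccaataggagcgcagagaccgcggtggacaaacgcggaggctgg
Cdt1 (chr8:122567765-122568064, plus strand): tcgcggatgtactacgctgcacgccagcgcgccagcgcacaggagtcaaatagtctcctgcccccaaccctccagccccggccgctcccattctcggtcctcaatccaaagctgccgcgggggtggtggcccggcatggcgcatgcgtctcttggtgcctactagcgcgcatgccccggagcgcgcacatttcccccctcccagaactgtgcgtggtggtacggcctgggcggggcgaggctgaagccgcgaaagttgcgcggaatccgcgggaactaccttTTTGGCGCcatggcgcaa

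CpG content of the promoters differed between both sets at the low end. The median was 7.67 CpG per 100 bases in the higher genes and 6 in the lower genes, against 7 in genes that reached 50 in at least 1 array. Promoters with fewer than 2 CpG per 100 bases were 2.22% of those of the higher genes and 16.2% of those of the lower genes, against 10.6% of those of genes that reached 50 and 22% of all. The higher genes outside the replication, mitosis and repair lists had 2.02% of such promoters. The rule asks a higher gene to be bright in every culture and a lower gene in every tissue. Genes that reached 50 needed only 1 array, so the sets differ in breadth of expression too. The part of breadth in the CpG difference was not tested. Lin28a lies under the lower quartile of the higher genes, which is 6, with 3.33 CpG per 100 bases, close to the 3.67 of Ndrg2, the gene with the largest gap in the other direction. In these promoters capitals mark every CpG.
Lin28a (chr4:134018767-134019066, minus strand): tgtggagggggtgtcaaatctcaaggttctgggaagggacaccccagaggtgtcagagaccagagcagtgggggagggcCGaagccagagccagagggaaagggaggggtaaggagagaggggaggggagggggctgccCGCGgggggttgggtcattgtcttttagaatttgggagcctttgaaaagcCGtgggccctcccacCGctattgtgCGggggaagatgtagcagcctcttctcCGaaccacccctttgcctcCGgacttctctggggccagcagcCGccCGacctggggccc
Ndrg2 (chr14:51913955-51914254, minus strand): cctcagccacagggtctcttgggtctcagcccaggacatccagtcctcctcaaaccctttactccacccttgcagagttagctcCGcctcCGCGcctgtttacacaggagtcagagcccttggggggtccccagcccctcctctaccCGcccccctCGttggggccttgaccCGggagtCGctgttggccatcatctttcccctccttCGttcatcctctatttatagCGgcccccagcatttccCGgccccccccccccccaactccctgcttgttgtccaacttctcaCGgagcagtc

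**Figure D4:**
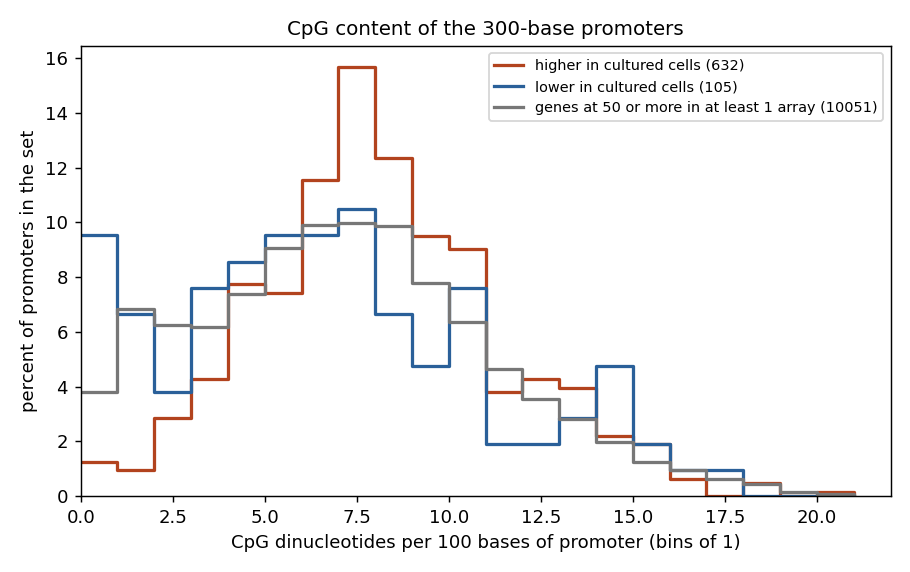
Distribution of CpG dinucleotides per 100 bases in the 300-base promoters of genes higher in the cultured cells (red, 632), lower in the cultured cells (blue, 105) and at 50 or more in at least 1 array (grey, 10051), as percent of each set in bins of 1. The red line is the lowest of the 3 under 2 CpG per 100 bases, where it holds 2.22% of its promoters, against 16.2% and 10.6%.

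Genes that write, read or erase DNA methylation and Polycomb marks were in part among the members, with 11 of 30 higher (5 with the geometric mean of probe sets), 0 lower and a median log2 difference of 0.98. Ezh2, the methyltransferase of Polycomb repressive complex 2, had 1537 (SK7_ESC), 1668 (Ect), 1420 (End) and 1211 (Pme), against 36.6 in Brain, 56.7 in Liver and 62.3 in Sk_muscle, a gap of 19.4-fold. Its close relative Ezh1 overlapped, with 131.2, 43.2, 122.5 and 138.1 in SK7_ESC, Ect, End and Pme, against 162.0, 66.9 and 242.4 in Brain, Liver and Sk_muscle. The partner Suz12 was 2.73-fold apart and the accessory subunits Mtf2 and Jarid2 were 3.68-fold and 2.18-fold apart (with the geometric mean 1.82 for Suz12 and 1.77 for Mtf2), whereas Eed, a further core subunit, was not, with 651.8 in Sk_muscle and 611.1 in Pme. Dnmt3b, a de novo DNA methyltransferase, was unlike Ezh2 in its spread, at 1888 (SK7_ESC), 333 (Ect), 3480 (End) and 599 (Pme), against 4.5 in Brain, 55.5 in Liver and 23.5 in Sk_muscle. A further probe set of Dnmt3b did not pass the rule, with 75.9 in Ect and 142.2 in Pme, against at most 21.5 in the tissues. Dnmt1, the maintenance enzyme, was 3.36-fold apart, and Dnmt3a was not apart. Kdm2b, which recruits a Polycomb repressive complex 1 to unmethylated CpG, was 5.57-fold apart. Of 24 imprinted genes Mest and Grb10 were higher, by 3.91-fold and 3.15-fold, and 0 were lower. The share higher was 8.33%, against 4.19% of all genes and 6.11% of those that reached 50. Without probe sets of shared sequence 1 was higher, since Grb10 then had no probe set. For Mest the signals were 717 (SK7_ESC), 3748 (Ect), 2163 (End) and 4590 (Pme), against 183.5 in Brain, 31.2 in Liver and 45.6 in Sk_muscle.

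Genes for making ribosomes and nucleotides were higher in part. Of 67 ribosome biogenesis genes 24 were higher, 0 were lower, and the median log2 difference was 1.69. Fbl, the methyltransferase of nucleolar box C/D particles, led with 2153 (SK7_ESC), 1581 (Ect), 1844 (End) and 1452 (Pme), against 211.9 in Brain, 307.7 in Liver and 211.8 in Sk_muscle, and its partners Nop56 and Nop58 were 3.69-fold and 3.76-fold apart. Of 31 genes of serine, folate and nucleotide synthesis 14 were higher and 0 lower, among them Rrm2 described above, Rrm1, the large subunit of ribonucleotide reductase (5.11-fold), Mthfd1l of the mitochondrial folate cycle (at least 5.17-fold) and Phgdh, the entry step of serine synthesis (2.95-fold). Without probe sets of shared sequence 8 of this list were apart, and Dut, the dUTPase gene with a gap of 7.46, was at 0.677. Of 46 ribosomal protein genes 5 were higher (Rpl12, Rpl14, Rps25, Rps6 and Rps4l) and 0 lower, with a median log2 difference of 0.55. The share higher was 10.9%, against 4.19% of all genes and 6.11% of those that reached 50. Rpl12 and Rpl14 were dim for this list, at most 323 and 369.6 in the cultures. The list median there was between 5397 and 5853. Rps6 had 342, 558, 382 and 364 in SK7_ESC, Ect, End and Pme, against 107.9, 153.6 and 118.3 in Brain, Liver and Sk_muscle, and its gap of 2.23 was 1.88 after quantile normalization. Ribosomal protein transcripts share sequence with many processed copies in the genome, and the array cannot say from which copy a signal came.

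Lists of nuclear pore, spliceosomal and RNA-binding splicing proteins were set up after such genes had been seen among the members, so that their counts are no independent evidence. The counts of the 30 other lists are none either, since those lists were chosen with earlier results of these data known. Of 26 nuclear pore genes 15 were higher, of 24 genes of spliceosomal snRNP proteins 13, and of 32 genes of SR proteins and hnRNPs 17, and 0 were lower in each. Nup107, a scaffold subunit of the pore, had 627 (SK7_ESC), 341 (Ect), 419 (End) and 441 (Pme), against 60.7 in Brain, 23.4 in Liver and 35.9 in Sk_muscle. Its scaffold partners Nup133 and Nup160 were higher too, whereas Sec13, shared with vesicle coats, was not apart, with 625, 446, 440 and 365 in SK7_ESC, Ect, End and Pme, against 209.6, 767.1 and 562.9 in Brain, Liver and Sk_muscle. Among the splicing genes Sf3b3, Snrpf, Hnrnpd and Srsf10 were 4.59-fold, 4.54-fold, 4.50-fold and 4.395-fold apart. Without probe sets of shared sequence, 8 snRNP genes and 11 SR protein and hnRNP genes were apart, and with the geometric mean 8 snRNP genes were.

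**Figure D5:**
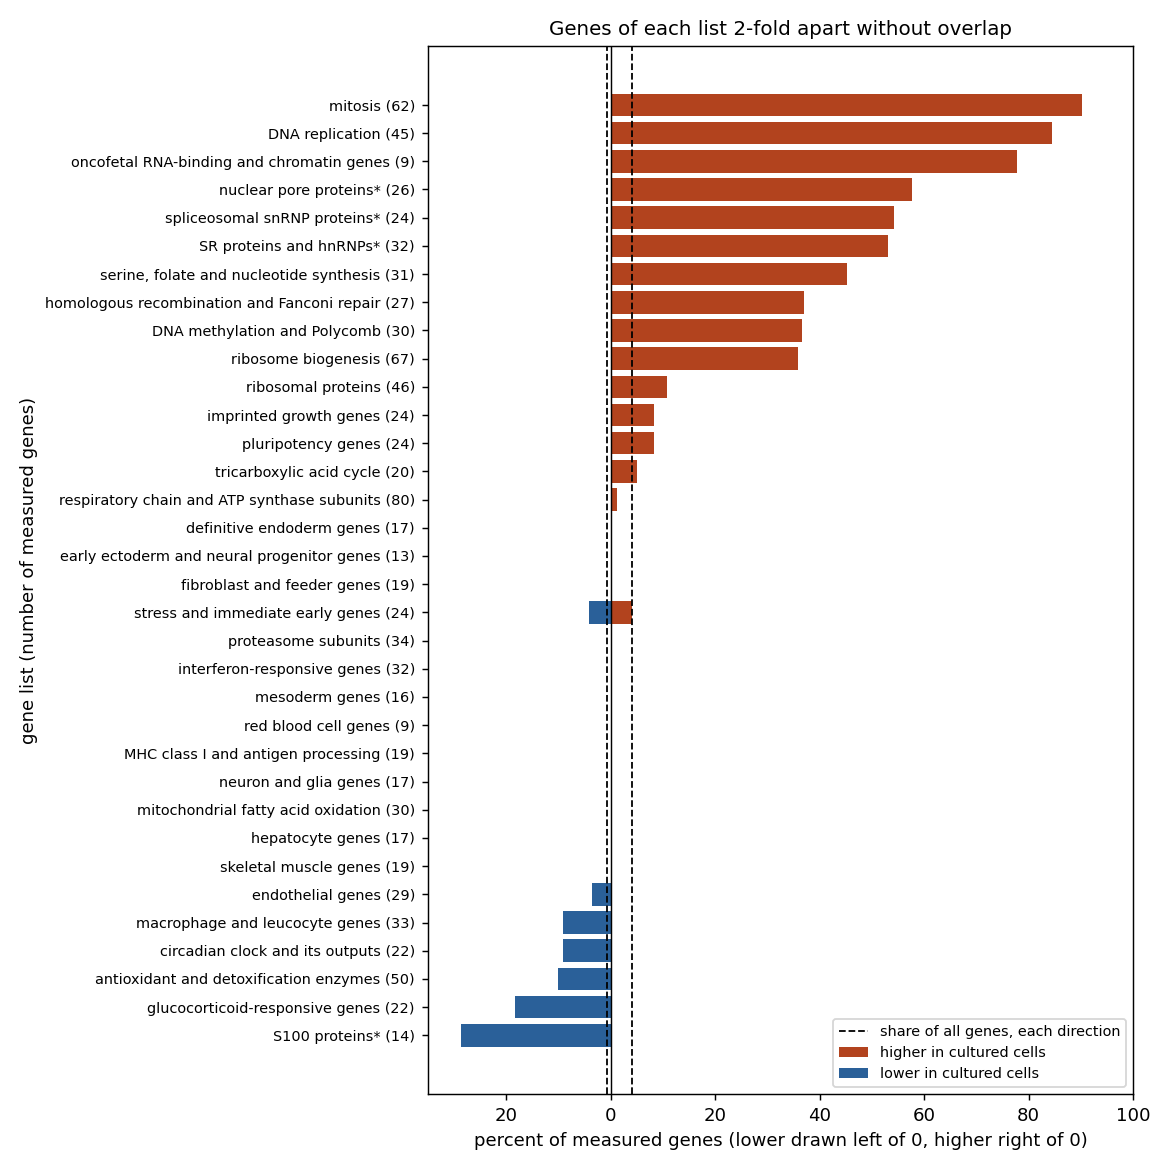
Percent of the measured genes of each list that were 2-fold apart without overlap, with genes higher in the cultured cells to the right (red) and lower to the left (blue). Dashed lines mark the shares of all genes, 4.19% and 0.709%, and stars mark lists chosen after the values were seen. Lists without a star were chosen with earlier results of these data known. The mitosis list reaches 56 of 62 genes, and the list of glucocorticoid-responsive genes reaches 4 of 22 on the left.

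The genes lower in the cultured cells fell into few of the lists, and 15 of the 129 were in any list but the S100 list. Ndrg2, of the NDRG family of stress-responsive genes, led them, with 114.4 (SK7_ESC), 12.0 (Ect), 43.3 (End) and 87.3 (Pme), against 1769 in Brain, 3551 in Liver and 3991 in Sk_muscle. Clu, which encodes the secreted chaperone clusterin, had 91.5 (SK7_ESC), 105.0 (Ect), 84.4 (End) and 118.9 (Pme), against 3025 in Brain, 9609 in Liver and 1392 in Sk_muscle. Both genes were far apart from the cultures in every tissue, and the 3 further probe sets of Clu passed the same rule. Ppp1r3c, which brings a phosphatase to glycogen, was 6.48-fold lower and spread widely in the tissues, with 783 in Brain, 578 in Liver and 13302 in Sk_muscle. Plekhb1, Ociad2, Tlcd4 and Tango2 were lower by at least 7.85-fold, 6.98-fold, 5.98-fold and 5.95-fold, and Tlcd4 was not with the geometric mean. S1pr1, a receptor for sphingosine 1-phosphate, was even in the tissues, at 291.0 in Brain, 307.7 in Liver and 269.4 in Sk_muscle, and was at most 15.8 in the cultures.

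The glucocorticoid receptor and several of its known targets were lower in the cultures. Nr3c1, which encodes the receptor, had 60.3 (SK7_ESC), 50.6 (Ect), 46.5 (End) and 97.9 (Pme), against 548 in Brain, 448 in Liver and 573 in Sk_muscle, a gap of 4.57-fold. The tissues were close to each other, and 3 of the 5 further probe sets passed the same rule. Hsd11b1, the enzyme that regenerates active glucocorticoid inside cells, was at least 2.45-fold lower and was named after its values were seen. Of 22 glucocorticoid-responsive genes 4 were lower, 0 were higher, and the median log2 difference was −2.18. The list summed to between 5457 and 11939 in the cultures, against 15811 in Brain, 61399 in Liver and 55979 in Sk_muscle. Brain was thus much nearer to the cultures than Liver and Sk_muscle were. Tsc22d3, an anti-inflammatory target also called GILZ, had 53.2 (SK7_ESC), 175.7 (Ect), 103.7 (End) and 234.6 (Pme), against 773 in Brain, 979 in Liver and 4591 in Sk_muscle, and its gap of 3.30 was 1.63 with the geometric mean of probe sets. Klf15, a metabolic transcription factor, had 62.6, 15.8, 13.0 and 5.6 in SK7_ESC, Ect, End and Pme, against 140.6, 960.9 and 292.3 in Brain, Liver and Sk_muscle, and its gap of 2.25 was 1.40 after scaling the arrays to the same median. Sult1a1 and Lcn2, lower by at least 3.57-fold and 5.48-fold, completed the 4. Klf9, a further target, was not apart, with 1609 in SK7_ESC and 126.0, 495.0 and 240.1 in Ect, End and Pme, against 2029, 1644 and 3729 in Brain, Liver and Sk_muscle. Without probe sets of shared sequence 1 gene of the list was lower, and with a floor of 100 it was 2.

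Of 22 genes of the circadian clock and its outputs, Clock and Rora were lower and 0 were higher, with a median log2 difference of −0.74. The share lower was 9.09%, against 0.709% of all genes and 1.03% of those that reached 50. The count of 2 was 1 with median scaling or a 3-fold gap, 0 with the geometric mean of probe sets and 10 by group means. Rora, a nuclear receptor that switches on Arntl, had 31.7 (SK7_ESC), 30.4 (Ect), 56.2 (End) and 32.0 (Pme), against 420 in Brain, 425 in Liver and 689 in Sk_muscle, 7.47-fold lower and 1.83-fold with the geometric mean. Clock, which encodes the partner of the Arntl product, had 83.4 (SK7_ESC), 97.0 (Ect), 42.5 (End) and 150.2 (Pme), against 359 in Brain, 328 in Liver and 349 in Sk_muscle. The tissue levels of Clock were nearly equal, and the gap of 2.19 was 1.76 after scaling to the same median and 1.95 with the geometric mean of probe sets. Per1 and Cry2, repressors of the clock, were not apart, with gaps of 1.62 and 1.05. No source used here gives the hour at which the tissues were taken.

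Mitochondrial genes were lower in the cultures by group means, mostly without reaching the rule, and Brain was not above the cultures in the list sums. Of 80 respiratory chain and ATP synthase genes 73 had a lower mean in the cultures, with a median log2 difference of −1.06, but 0 passed the rule as lower. The list summed to between 102519 and 128612 in the cultures, against 123875 in Brain, 183994 in Liver and 551697 in Sk_muscle, so that Brain lay within the range of the cultures. Cox6b2, the testis form of a cytochrome oxidase subunit, went against the list and was at least 3.29-fold higher, at 523 (SK7_ESC), 164.6 (Ect), 195.6 (End) and 181.9 (Pme), against 22.9, 11.1 and 10.3 in Brain, Liver and Sk_muscle. In the list of 20 genes for the tricarboxylic acid cycle 18 had a lower mean in the cultures, but 0 passed the rule as lower. This list summed to between 14225 and 20744 in the cultures, against 17792 in Brain, 21645 in Liver and 79417 in Sk_muscle. A single gene was higher (5%, against 4.19% of all genes and 6.11% of those that reached 50). That gene was Pdk1, a kinase that shuts pyruvate dehydrogenase, so that no enzyme of the cycle itself was apart. Pdk1 had 1540 (SK7_ESC), 442 (Ect), 602 (End) and 551 (Pme), against 97.9 in Brain, 133.6 in Liver and 131.5 in Sk_muscle, 3.30-fold apart and 1.43-fold with the geometric mean. Of its 3 further probe sets 1 passed the rule, and 1 had a lower mean in the cultures, with 149.3 (SK7_ESC), 127.4 (Ect), 115.9 (End) and 94.8 (Pme), against 211.9 in Brain, 102.5 in Liver and 356.0 in Sk_muscle. Mpc1, a subunit of the carrier that takes pyruvate into mitochondria, was lower, with 268.9 (SK7_ESC), 202.1 (Ect), 47.0 (End) and 133.9 (Pme), against 1540 in Brain, 3094 in Liver and 6939 in Sk_muscle. Of 30 fatty acid oxidation genes 0 were members, and 29 had a lower mean in the cultures. Their sum was between 6199 and 8604 in the cultures, against 5173 in Brain, 40131 in Liver and 62481 in Sk_muscle. Brain thus lay under every culture. Pink1, Mfn2 and Sirt3, which act in mitochondrial quality control, fusion and deacetylation and were named after their values were seen, were lower by 3.20-fold, 2.07-fold and 2.41-fold.

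Of 50 antioxidant and detoxification genes 5 were lower and 0 higher, with a median log2 difference of −1.59. Selenop, the plasma carrier of selenium, had 224.3 (SK7_ESC), 787.0 (Ect), 323.0 (End) and 997.9 (Pme), against 3376 in Brain, 11014 in Liver and 2995 in Sk_muscle. Gstm1, a glutathione transferase, was 3.07-fold lower, Aldh6a1, an enzyme of valine breakdown, 2.69-fold, and Gstk1, of mitochondria and peroxisomes, at least 2.11-fold. Sult1a1, named above, was the fifth. Scaled to the same median 2 of the 5 were apart, without Gstm1 (1.92), Aldh6a1 (1.71) and Gstk1 (1.59), and 3 genes were with a floor of 100 or without probe sets of shared sequence. Liver had the highest signal for each of the 5, and hepatocyte genes outside Liver summed to between 94.7 and 215.6 in the cultures, 4347 in Brain and 1194 in Sk_muscle. A single gene of that list, Ttr, gave 4211.7 of the Brain sum, so that the sum is no measure of hepatocyte RNA in Brain. The part of hepatocytes in the signals of Brain and Sk_muscle was not tested.

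A few genes of leucocytes and vessel cells, which run through all tissues, were among the lower members. Of 33 macrophage and leucocyte genes 3 were lower and 0 higher, and 26 had a lower mean. The share lower was 9.09%, against 0.709% of all genes and 1.03% of those that reached 50. Csf1r, the receptor for the macrophage growth factor, had 12.9 (SK7_ESC), 15.3 (Ect), 14.5 (End) and 13.0 (Pme), against 899 in Brain, 857 in Liver and 219.8 in Sk_muscle, and Ctss, a lysosomal protease of these cells, had at most 5.9 in the cultures, against 747, 503 and 131.9 in Brain, Liver and Sk_muscle. With the geometric mean of probe sets the gap of Csf1r was 1.79. Lyz1, lysozyme, was at least 2.38-fold lower with 1 of its probe sets and not with the geometric mean. The list summed to between 242 and 416 in the cultures, against 4610 in Brain, 6426 in Liver and 2732 in Sk_muscle, and the pan-leucocyte gene Ptprc was at most 4.4 in the cultures, against 39.2, 95.0 and 20.3 in Brain, Liver and Sk_muscle. The count of 3 was 10 with a floor of 20, and 1 with a floor of 100 or with the geometric mean of probe sets. S100a8 and S100a9, the calprotectin genes of neutrophils, were lower by at least 4.08-fold and 2.95-fold, S100a1 by 4.91-fold and S100a16 by 4.13-fold, and these 4 of 14 S100 genes form a list chosen after its values were seen (2 without probe sets of shared sequence). Of 29 endothelial genes Ptprb was lower (3.45%), by at least 2.03-fold (1.53 after scaling to the same median), and all 29 had a lower mean. The count of 1 was 4 with a floor of 20, and 0 with a floor of 100, quantile normalization, median scaling or geometric means. They summed to 664, 308.5, 1063 and 816 in SK7_ESC, Ect, End and Pme, against 1328, 3148 and 20176 in Brain, Liver and Sk_muscle. Of 9 red blood cell genes 0 were members, and their sums lay between 141.8 and 337.2 in the cultures, against 1168 in Brain, 333.9 in Liver and 624.2 in Sk_muscle. Add2, a membrane skeleton gene that neurons use too, gave 832.3 of the Brain sum. The part of these cells in the other members was not tested.

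A gene limited to 1 culture or 1 tissue cannot pass the rule. The lists for neural progenitors, endoderm, mesoderm, neurons and glia, hepatocytes and skeletal muscle each held 0 genes apart in either direction, as did those for fibroblasts and feeders, proteasome subunits, interferon-responsive genes and antigen processing. Of 24 pluripotency genes Lin28a and Sall4 were higher (8.33%, against 4.19% of all genes and 6.11% of those that reached 50). Pou5f1, the core pluripotency factor, was 2038 in SK7_ESC but 7.5, 57.3 and 25.7 in Ect, End and Pme, against at most 2.2 in the tissues. Of 24 stress and immediate early genes 1 went each way (4.17%, against 4.19% of all genes higher and 0.709% lower). Ier2, which serum induces within minutes, had 576 (SK7_ESC), 753 (Ect), 809 (End) and 764 (Pme), against 38.0 in Brain, 142.2 in Liver and 88.4 in Sk_muscle. Hspa1b, an inducible heat shock protein gene, had 124.4, 73.4, 40.5 and 540.4 in SK7_ESC, Ect, End and Pme, against 1177, 1779 and 1305 in Brain, Liver and Sk_muscle, and its gap of 2.18 was 1.60 after scaling to the same median.

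Further probe sets of the members, which read the same RNA and are no replicates, mostly had the same direction. For the higher genes, 735 further probe sets reached 50 in at least 1 array, of which 334 (45.4%) passed the same rule and 703 (95.6%) had the same direction of means. For the lower genes 52 of 135 (38.5%) passed and 132 (97.8%) had the same direction, and 0 passed in the opposite direction in either set. Over all genes, 5.24% of such further probe sets passed as higher and 0.873% as lower. The membership of a gene near the limit is a matter of small differences in signal. Just inside it for the higher genes were Cbx2 (2.002), Gatad2a (2.003) and Rnps1 (2.004), and just outside were Sephs1 (1.999), Mcmbp (1.999) and Mapre1 (1.9996). For the lower genes Slc4a4 (2.03), Them4 (2.03) and Dop1b (2.03) lay just inside, and Wdr45 (1.97), Spns2 (1.98) and Nkiras1 (1.998) just outside.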

How the data were processed

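Whole-sample RNA was read on Affymetrix arrays, which the authors scaled to an average signal of 100 each. In the deposited values this holds for the trimmed mean, which leaves out extreme signals. The plain mean ran from 141 in Brain to 204 in Sk_muscle. The deposited table holds an intensity on a linear scale for 45101 probe sets. No source used here names the algorithm behind it. The labels name another RNA kit than the methods. Names came from the platform annotation, which gives 34958 probe sets 1 symbol, 932 several and 9211 none. Of those with 1 symbol, 34754 matched RefSeq (GRCm38.p6) and 0 changed. The members and the 30 lists were chosen with earlier results of these data known, and 4 lists were added after seeing values. Named genes were Lin28a, the 20 largest gaps each way without predicted genes, up to 6 members of each list plus those against its direction, and 3 on either side of the limit. Other genes, among them those given as not apart, were chosen after their values were seen. List differences are between mean log2 signals after raising to 50. No test was made, since 7 unlike cell types are not replicates. Alternatives were floors of 20 and 100, quantile normalization, median scaling, geometric means of probe sets, leaving out shared-sequence probe sets, a 3-fold gap, group means, and leaving out each array. Python 3.11.15, numpy 2.4.6, pandas 2.3.3 and matplotlib 3.10.9 were used.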

Additional observations from a re-analysis of the deposited data

How the results depend on the processing

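The 762 higher genes became 355 with a 3-fold gap and 2287 by group means, and lay between 532 (geometric means) and 1031 (median scaling) under the other alternatives that kept all 7 arrays. The 129 lower genes became 195 with a floor of 20, 72 with a floor of 100, 70 with median scaling, 77 with geometric means, 47 with a 3-fold gap and 2038 by group means. Median scaling moved the median log2 difference of all genes that reached 50, with signals raised to 1 and not to 50, from 0.08 to 0.38 and the share of higher genes among members from 85.5% to 93.6%, and by group means that share was 52.9%. Leaving out each array in turn gave 811 to 1109 higher and 143 to 443 lower genes. The lower count moved by more than 1.5 times without Brain (443), Liver (357) and Sk_muscle (239). No named gene passed the rule in the opposite direction where a value could be had. The log2 difference of means of Dut was −0.024 in the probe set left without shared-sequence sets. Of 102 named genes 30 left the rule with geometric means, 19 with a 3-fold gap, 13 with a floor of 100, 11 with median scaling, and 8 with quantile normalization. Without shared-sequence probe sets 86 of them had a value and 6 of these left the rule. No paired analysis was possible because each cell type had 1 array. Signals under 50 are not measured here, so that differences between dim genes can be missed.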

Other observations

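Genes that joined when 1 array was left out, named after their values were seen, show which array kept a gene from the rule. Without Brain 347 further genes were higher in the cultured cells and 314 lower. Stmn1, a regulator of microtubules, had signals of 2828, 3792, 3077 and 2226 in SK7_ESC, Ect, End and Pme, against 3187 in Brain, 71.6 in Liver and 38.0 in Sk_muscle. Fscn1, which bundles actin, and Basp1, a growth cone protein, had the same pattern, with 1638 and 2690 in Brain and at most 132.8 and 74.9 in the remaining tissues. Without Liver 178 joined as higher and 228 as lower, and the lower ones were led by Eef1a2, Rbfox1 and Mef2c. Eef1a2, the elongation factor of neurons and muscle, was between 47.3 and 57.0 in the cultures, against 2089 in Brain, 82.7 in Liver and 4553 in Sk_muscle.

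Without Sk_muscle 218 genes joined as higher and 110 as lower. Vim, which encodes the intermediate filament protein vimentin, had 1920, 3991, 1489 and 4510 in SK7_ESC, Ect, End and Pme, against 179.4 in Brain, 120.9 in Liver and 1613 in Sk_muscle. C1qa, a complement gene of macrophages, was at most 0.8 in the cultures, against 538.2 in Brain, 537.8 in Liver and 77.0 in Sk_muscle. Without SK7_ESC 121 joined as higher, led by Gpc3, a glypican of growing embryonic tissue, with 60.5 in SK7_ESC and 558, 2118 and 1072 in Ect, End and Pme, against at most 51.5 in the tissues. The 28 that joined as lower included the metallothionein gene Mt1, with 1430 in SK7_ESC and 506, 119.0 and 207 in Ect, End and Pme, against 2581 in Brain, 13314 in Liver and 8728 in Sk_muscle. Leaving out Pme added Rgs5, a pericyte gene with 1351 in Pme, at most 20.5 in SK7_ESC, Ect and End, and 393, 698 and 3072 in Brain, Liver and Sk_muscle.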
